A study of Arabidopsis thaliana with 14 samples.

Results

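A set of 60 Affymetrix probe sets in Arabidopsis thaliana roots differed from standard medium in one direction after 24 h without iron and in the opposite direction after 48 h. The set was chosen from 22746 non-control probe sets, of which 12556 had a mean signal of 100 or more in some group. Membership needed a difference from standard of at least 0.6 at both times on the log2(signal + 16) scale, with both arrays of each time beyond both standard arrays. Of the members, 28 were higher at 24 h and lower at 48 h, and 32 were lower at 24 h and higher at 48 h. That split depended on single arrays, with 84 and 46 without replicate 2 of 24 h and 25 and 59 without replicate 1 of 24 h. The peroxidase gene AT4G36430 also met these values and was left out by the definition of the set, as were probe sets with a symbol of 10 named gene families, although none with such a symbol had met the values. Apart from the signal minimum, the values at standard, 24 h and 48 h therefore chose the members, and they are given below as a description without a test. The signal minimum could be met in any group, and AT5G58610 met it at 72 h alone.

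The samples were whole roots of the Columbia ecotype, grown for 5 days on agar with a chelated iron salt and then transferred. Iron-deficient plates lacked the iron salt and held 0.3 mM Ferrozine, which binds ferrous iron, and roots were taken after 3, 6, 12, 24, 48 and 72 h. The reference was roots moved to fresh standard plates for 3 h, so no standard group matches the later times in handling or age. Each of the 7 groups had 2 biological replicates, each a pool of many roots on an array of its own, giving 14 arrays. The labels place all harvests within a single 3 h period of the sixth day, which cannot hold for 48 and 72 h after 5 days of growth, so the age of the later roots is not settled here.

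Dicot roots short of iron acidify the soil, secrete coumarins that free iron, reduce ferric iron at the surface and import the ferrous ion, under the control of basic helix-loop-helix transcription factors. Genes of that uptake programme typically stay raised while deficiency lasts. Roots also change nitrate transporters, cell wall enzymes and peroxidases when nutrients run short. In whole roots, fewer cells of a type and less RNA per cell cannot be told apart.

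The 48 and 72 h arrays stood apart from the other 10, and this boundary lies between the 2 times that define the set. The geometric mean of the 18 hybridisation spike-in probe sets was 378 to 440 on the 4 arrays of 48 and 72 h, against 2172 to 3232 on the arrays of standard medium and 3 to 24 h. The brightest probe set reached 11714 to 15134 on the later arrays, against 27452 to 43173 on the earlier ones. Control probe sets at the 3' end of a transcript gave, on average, 1.33 times the signal of those at the 5' end for actin and 1.62 times for ubiquitin on the later arrays, against 2.05 and 2.16 times on the earlier ones, while that for GAPDH was 1.03 times on the later arrays and 0.873 times on the earlier ones. Each group lay wholly in one of the sets, so array set and time after 24 h cannot be told apart, and every value that sets 48 or 72 h against an earlier group crosses that boundary. The median signal per array was alike in all, at 84.5 to 94.9.

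The members that were higher at 24 h, called early-rising below, had a median above standard at every time of the first day and below it at both later times. Their median difference from standard was 0.34 at 3 h, 0.56 at 6 h, 0.68 at 12 h, 0.74 at 24 h, −1.19 at 48 h and −1.28 at 72 h. The members that were lower at 24 h, called early-falling below by that time alone, ran the other way at the median. Their medians were −0.26, −0.56, −0.68, −0.85, 1.19 and 1.23 at the same times. The medians over the 12556 probe sets past the signal minimum lay between 0.01 and 0.08 at these times. All these medians are differences from the 2 standard arrays that also chose the members, so they are a description only. Low signals enter them. At 24 h, 16 of the 32 had a mean signal under 49.6, the level of the filter used for the tests. At 48 h this held for 10 of the 28. At 3 h the arrays overlapped the standard arrays in 12 of the 28 and in 20 of the 32. Of the 32, 10 had both 3 h arrays below both standard arrays and 2 had both above. The share of all probe sets that overlapped at 3 h was not computed, so nothing is read from these counts.

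**Figure D1:**
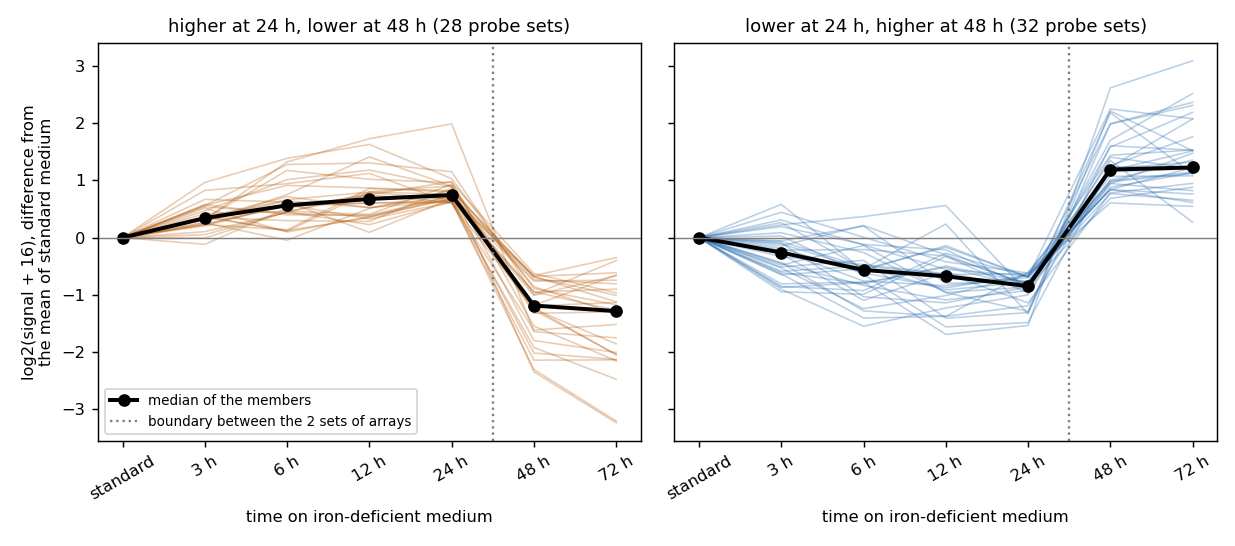
Difference in log2(signal + 16) from the mean of standard medium (vertical axis) at each time without iron (horizontal axis), with a thin line for each member, a black line for the median and a dotted line at the boundary between the 2 sets of arrays. The median of the 28 members in one panel is 0.74 at 24 h and −1.19 at 48 h, and that of the 32 members in the other is −0.85 at 24 h and 1.19 at 48 h.

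The difference at 24 h was 0.61 to 1.99 in the members that were higher then, and their difference at 48 h was −2.35 to −0.63. In the members that were lower at 24 h it was −1.54 to −0.60, with 0.61 to 2.62 at 48 h. Among the first 4 times, the farthest point from standard was 24 h for 16 of the 28 and for 13 of the 32, and 12 h for 9 and 12 of them. None was farthest at 3 h. At 72 h, 17 of the 28 and 20 of the 32 were farther from standard than at 48 h. The 60 members were 0.478% of the probe sets past the signal minimum, while 753 others met the same thresholds in one direction at both times.

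The 2 replicates at 24 h differed more, at the median, for the members than for all probe sets past the signal minimum. The median absolute difference between them was 0.25 for the 28 and 0.33 for the 32, against 0.20 over those probe sets. This was not particular to 24 h. For the 32 it was 0.38 against 0.24 on standard medium and 0.39 against 0.23 at 6 h, and for the 28 it was 0.32 against 0.18 at 72 h. The members differed less in the 28 at 3 h (0.21 against 0.23) and in the 32 at 72 h (0.16 against 0.18). At 24 h, replicate 1 was above replicate 2 in 23 of the 28 and in 21 of the 32. When the definition was applied without replicate 2 of 24 h, 130 probe sets met it, of which 52 were among the 60. The definition kept 44 of the 60 without replicate 1 of 24 h, 41 without replicate 1 of standard medium and 42 without replicate 2 of standard medium. Just inside the threshold lay AT5G58610 (−0.60 at 24 h and 1.17 at 48 h), probe set 245306_at (0.61 and −1.23) and probe set 265872_at (−0.65 and 0.61). Just outside lay probe set 245035_at (−0.60 and 0.62), AT3G26070 (0.60 and −0.64) and probe set 249765_at (−0.60 and 0.59).

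In the platform's annotation used here, 28 members were paired with a single gene, 3 with several and 29 with none. The single genes with the early rise, 10 in number, lay on chromosomes 1 to 5, and the 18 with the early fall on chromosomes 1, 2, 3 and 5. The closest neighbours were AT4G33550 and AT4G33610, both of the early rise, with 6 protein-coding genes between them. The next closest pair, AT1G14120 and AT1G14550, had 48 protein-coding genes between its loci and moved in opposite directions.

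The widest swing among the early-rising transporters and enzymes was that of AT2G26690, which encodes NPF6.2, a member of the nitrate and peptide transporter family. Its signal was 462 and 412 on standard medium, 578 and 519 at 3 h, 1163 and 1071 at 6 h, 1554 and 1416 at 12 h, 2368 and 1336 at 24 h, 136 and 122 at 48 h, and 134 and 104 at 72 h. The arrays of each time up to 24 h lay above both standard arrays, and the arrays of 48 and 72 h all lay below them. On arrays outside the differences that define the set, 12 h was above 3 h by 1.41 ± 0.22 (log2, SE, limma adjusted p = 0.00141), and 72 h differed from 12 h by −3.48 ± 0.22 (adjusted p = 2.66e-10). It was the one early-rising member called in the first of these comparisons. AT2G26690 also passed the test at 6 h against standard, with 1.32 and an adjusted p of 0.00307. That test shares the standard arrays with the definition, as does every test against standard given below for a single gene. Such p-values are not independent of how the members were chosen.

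AT1G68620 encodes a carboxylesterase-type hydrolase. It had signals of 426 and 367 on standard medium, 694 and 890.0 at 3 h, 1071 and 1048 at 6 h, 1053 and 1498 at 12 h, 1089 and 623 at 24 h, 206 and 207 at 48 h, and 203 and 135 at 72 h. Its highest differences from standard came at 6 h (1.39, limma adjusted p = 0.00557) and 12 h (1.63 ± 0.24, SE, adjusted p = 0.000451), before the time that put it in the set. The 6 h call was lost without replicate 2 of standard medium (adjusted p = 0.0513). At 72 h it differed from 12 h by −2.81 ± 0.24, with an adjusted p of 2.34e-08.

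AT1G14120 encodes DAO2, a dioxygenase of the family that needs ferrous iron and 2-oxoglutarate and that oxidises auxin. Its signals were 259 and 395 on standard medium, 521 and 374 at 6 h, 711 and 448 at 12 h, 554 and 487 at 24 h, 176 and 129 at 48 h, and 158 and 242 at 72 h. The standard arrays overlapped those of 6 h and not those of 24, 48 or 72 h. It was called lower at 72 h against 12 h (−1.45, limma adjusted p = 0.000479) and was not called at 72 h against standard (−0.66). AT5G19730, a pectinesterase-type cell wall enzyme, had a smaller swing, with 76.2 and 96.0 on standard medium, 157 and 148 at 24 h, 47.8 and 48.6 at 48 h, and 64.3 and 63.2 at 72 h. Its fall at 72 h against 12 h was the smallest of the early-rising members, at −0.72 (adjusted p = 0.0220), a call lost without either replicate of 72 h (adjusted p = 0.0935 and 0.0971), without replicate 1 of 12 h (0.129) and under quantile normalization (0.0515).

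Small secreted-type proteins formed another group of early-rising members. AT4G33550, a lipid-transfer-type protein, had 999 and 753 on standard medium, 1326 and 1754 at 12 h, 1726 and 1551 at 24 h, 326 and 348 at 48 h, and 397 and 297 at 72 h. It was called higher at 12 h against standard (0.80, limma adjusted p = 0.0342), a call lost in the fit of the 10 earlier arrays (adjusted p = 0.0532), without a filter (0.0583) and without replicate 2 of 12 h (0.248) or of standard medium (0.246). It was called lower at 72 h against 12 h (−2.10 ± 0.20, SE, adjusted p = 9.65e-08). Its neighbour AT4G33610, a glycine-rich protein, had 45.6 and 63.1 on standard medium, 97.5 and 114 at 24 h, 12.7 and 16.6 at 48 h, and 20.2 and 12.0 at 72 h. A further glycine-rich protein gene, AT1G55990, had 47.1 and 114 on standard medium, 131 and 143 at 24 h, 35.1 and 15.0 at 48 h, and 41.8 and 41.0 at 72 h. All 3 passed the test at 72 h against 12 h, AT4G33610 with −1.99 (adjusted p = 8.21e-05) and AT1G55990 with −1.45 (adjusted p = 0.00119).

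The other early-rising single genes were AT1G33340, of a family that assembles clathrin coats in vesicle traffic, and AT5G57785 and AT3G56290, for which no role is given here. AT5G57785 had 639 and 739 on standard medium, 1011 and 906 at 3 h, 1539 and 1280.1 at 6 h, 1734 and 1436 at 12 h, 1467 and 1129 at 24 h, 322 and 430.1 at 48 h, and 256 and 271 at 72 h. Its 6 and 12 h values passed the test against standard, with 1.01 (limma adjusted p = 0.00946) and 1.18 (adjusted p = 0.000988). The 6 h call was lost without replicate 1 of 6 h (adjusted p = 0.110) and without replicate 1 of standard medium (0.114). AT3G56290 had 389 and 519 on standard medium, 745 and 717 at 24 h, 87.6 and 112 at 48 h, and 64.3 and 125 at 72 h. Its 72 h difference from standard was the lowest of the early-rising single genes. It stood at −2.13 ± 0.24 against standard (SE, adjusted p = 8.56e-07). AT1G33340 had 87.0 and 83.8 on standard medium, 148 and 136 at 24 h, 42.9 and 44.8 at 48 h, and 45.2 and 43.9 at 72 h.

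**Figure D2:**
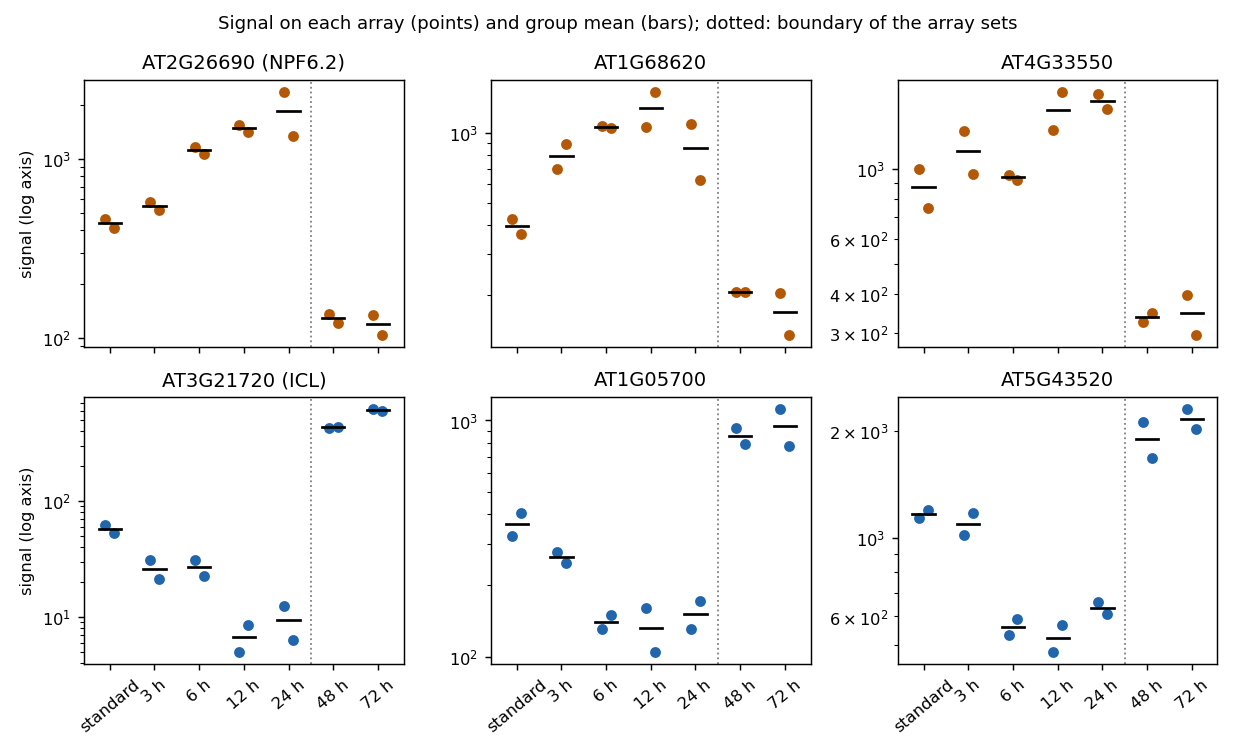
Signal on each array (points, log axis) and group mean (bars) for 6 members over standard medium and the 6 times without iron, with the dotted line at the boundary of the array sets. AT2G26690 shows 2368 and 1336 at 24 h and 136 and 122 at 48 h, and AT3G21720 shows 12.6 and 6.35 at 24 h and 432 and 435 at 48 h.

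The largest swing of the whole set was in the members with the early fall, in AT3G21720, which encodes isocitrate lyase (ICL) of the glyoxylate cycle, the route by which seedlings turn stored fat into sugar. Its signal was 61.8 and 52.9 on standard medium, 31.1 and 21.1 at 3 h, 31.3 and 22.6 at 6 h, 4.96 and 8.53 at 12 h, 12.6 and 6.35 at 24 h, 432 and 435 at 48 h, and 621 and 596 at 72 h. All arrays from 3 to 24 h lay below both standard arrays, at signals under the level of the filter on low values, and all arrays of 48 and 72 h lay far above them. At 12 h it differed from standard by −1.69 ± 0.28 (SE, limma adjusted p = 0.00124), a call that was lost when the 10 arrays of the earlier set were fitted alone (adjusted p = 0.0937) or the 4 arrays compared (0.193). The difference between 12 h and 3 h was not called (−0.88, adjusted p = 0.191), whereas 72 h exceeded 12 h by 4.78 ± 0.28 (adjusted p = 9.66e-11).

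Signalling genes also had the early fall. AT1G05700, a receptor kinase with leucine-rich repeats, had 323 and 407 on standard medium, 278 and 250.2 at 3 h, 131 and 149.7 at 6 h, 161 and 104 at 12 h, 130.5 and 172 at 24 h, 932 and 792 at 48 h, and 1115 and 778 at 72 h. It was called lower at 6 h (−1.28 ± 0.23, SE, limma adjusted p = 0.00634) and at 12 h (−1.38, adjusted p = 0.00131) against standard, and higher at 72 h against 12 h (2.70, adjusted p = 1.62e-08). Its difference of 12 h from 3 h, −0.94, missed the threshold with an adjusted p of 0.0561. The 6 h call ended when leaving out replicate 1 of 6 h (adjusted p = 0.0661) or replicate 2 of standard medium (0.0652).

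AT3G10300 encodes an EF-hand protein, a class that binds calcium. It had 313 and 358 on standard medium, 297 and 342 at 3 h, 212 and 248 at 6 h, 167 and 173 at 12 h, 191 and 187 at 24 h, 589.7 and 575 at 48 h, and 558 and 513 at 72 h. The replicates stayed close at every time, and the 3 h arrays overlapped the standard arrays. It was called lower at 12 h against 3 h, at −0.85 (limma adjusted p = 0.0203), a call lost in the fit of the 10 earlier arrays (adjusted p = 0.0824) and without any one of its 4 arrays (0.0594 to 0.175). It was called higher at 72 h against 12 h, at 1.57 (adjusted p = 9.50e-07).

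A pair of members encode proteins with cysteine- and histidine-rich C1 domains. AT5G43520 had 1137 and 1195 on standard medium, 1017 and 1172 at 3 h, 533 and 591 at 6 h, 476 and 567 at 12 h, 658 and 611 at 24 h, 2122 and 1675 at 48 h, and 2297 and 2027 at 72 h. Its fall set in between 3 and 6 h, and it was called at 12 h against 3 h (−1.05 ± 0.17, SE, limma adjusted p = 0.00247) and at 72 h against 12 h (2.02, adjusted p = 1.63e-08). AT1G44050 had 108 and 130.4 on standard medium, 79.3 and 56.3 at 24 h, 287 and 216 at 48 h, and 269 and 287 at 72 h, and was called at 72 h against 12 h (1.97, adjusted p = 3.20e-06).

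Enzymes with the early fall included AT5G64000, which encodes SAL2, a phosphatase of the adenosine bisphosphate left over by sulfation. Its signals were 47.1 and 79.1 on standard medium, 28.3 and 28.7 at 12 h, 27.3 and 31.2 at 24 h, 113 and 157 at 48 h, and 193 and 206 at 72 h. AT1G30760, an oxidase of the berberine bridge enzyme-like family, had 137 and 81.9 on standard medium, 50.8 and 62.5 at 24 h, 198 and 266 at 48 h, and 282 and 314 at 72 h. The class III peroxidase gene AT1G14550, of the secreted haem enzymes that act on cell wall phenolics, had 71.2 and 50.5 on standard medium, 24.8 and 20.9 at 24 h, 186 and 186 at 48 h, and 165 and 154 at 72 h. All 3 were called higher at 72 h against standard, with 1.48 (limma adjusted p = 0.000479) for AT5G64000, 1.36 (adjusted p = 0.00960) for AT1G30760 and 1.20 (adjusted p = 0.00177) for AT1G14550. The call of AT1G30760 ended when replicate 2 of 72 h (adjusted p = 0.0623) or of standard medium (0.105) was left out.

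AT3G07600, of a family with a heavy-metal-associated domain, had 106 and 126 on standard medium, 49.8 and 38.2 at 24 h, 255 and 173 at 48 h, and 233 and 244 at 72 h. It was called higher at 72 h against standard, at 0.95 (limma adjusted p = 0.0131), a call lost without either replicate of 72 h or replicate 1 of standard medium (adjusted p = 0.0612 to 0.0836). AT1G19380, of a family of unknown function, had 189.5 and 97.4 on standard medium, 78.6 and 56.5 at 24 h, 377 and 315 at 48 h, and 406 and 287 at 72 h. AT1G22570, a second member of the nitrate and peptide transporter family and named here after its values were seen, ran opposite to AT2G26690. It had 126 and 79.5 on standard medium, 77.5 and 44.4 at 24 h, 218 and 171 at 48 h, and 158 and 167 at 72 h, and its 72 h difference from standard was not called.

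Of the members with the early fall, 10 had a mean signal under the filter level of 49.6 over all arrays and were not tested, 7 of them paired with a single gene. AT2G28780, with no role given here, had 33.2 and 22.1 on standard medium, 2.65 and 0.798 at 24 h, 148 and 164 at 48 h, and 197 and 201 at 72 h. AT5G04730, an ankyrin-repeat protein, had 40.2 and 42.7 on standard medium, 22.4 and 5.49 at 24 h, 138 and 107 at 48 h, and 160.0 and 200.1 at 72 h. AT5G58610, a PHD-finger protein of the kind that reads histone tails, had 44.6 and 20.6 on standard medium, 17.8 and 12.4 at 24 h, 82.6 and 98.5 at 48 h, and 114 and 123 at 72 h. For these genes the standard and 24 h values were all low signals, while the later values were well above the filter level.

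AT1G53540 encodes HSP17.6C, a small heat shock protein that keeps damaged proteins soluble. It had 61.0 and 37.3 on standard medium, 20.7 and 20.4 at 24 h, 176 and 123 at 48 h, and 62.8 and 59.7 at 72 h, so that its 72 h arrays overlapped the standard arrays. AT2G01300, with no role given here, also had a lower signal at 72 h (88.1 and 48.3) than at 48 h (180.3 and 135), and its standard arrays were 43.3 and 8.14. Its means at 3, 6 and 12 h lay above standard (0.22, 0.37 and 0.56), with overlapping arrays, so it was lower at 24 h alone. AT2G30660, of the crotonase family of acyl-coenzyme A enzymes, had 60.7 and 39.9 on standard medium, 18.0 and 21.4 at 24 h, 117 and 144 at 48 h, and 116 and 156 at 72 h. AT1G67600, an acid phosphatase-related protein, had 55.4 and 43.8 on standard medium, 17.6 and 26.5 at 24 h, 104 and 105 at 48 h, and 127 and 127 at 72 h. At 12 h the arrays of AT1G53540 were 67.0 and 15.3, those of AT2G30660 68.9 and 8.70, and those of AT1G67600 67.0 and 9.78. Each of these genes overlapped the standard arrays at 6 and 12 h.

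Among the members paired with no gene, several had larger swings than most named genes. Probe set 264474_s_at had 788 and 663 on standard medium, 1821 and 973 at 24 h, 155 and 107 at 48 h, and 71.9 and 53.9 at 72 h. Probe set 257807_at had 296 and 331 on standard medium, 689 and 359 at 24 h, 49.96 and 51.2 at 48 h, and 23.8 and 15.9 at 72 h. Both lay more than 3 log2 units below standard at 72 h, at −3.24 and −3.21. In the other direction, probe set 253660_at had 308 and 478 on standard medium, 200.4 and 189.7 at 24 h, 1363 and 1219 at 48 h, and 2114 and 2465 at 72 h. These 3 were chosen after their values were seen.

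**Figure D3:**
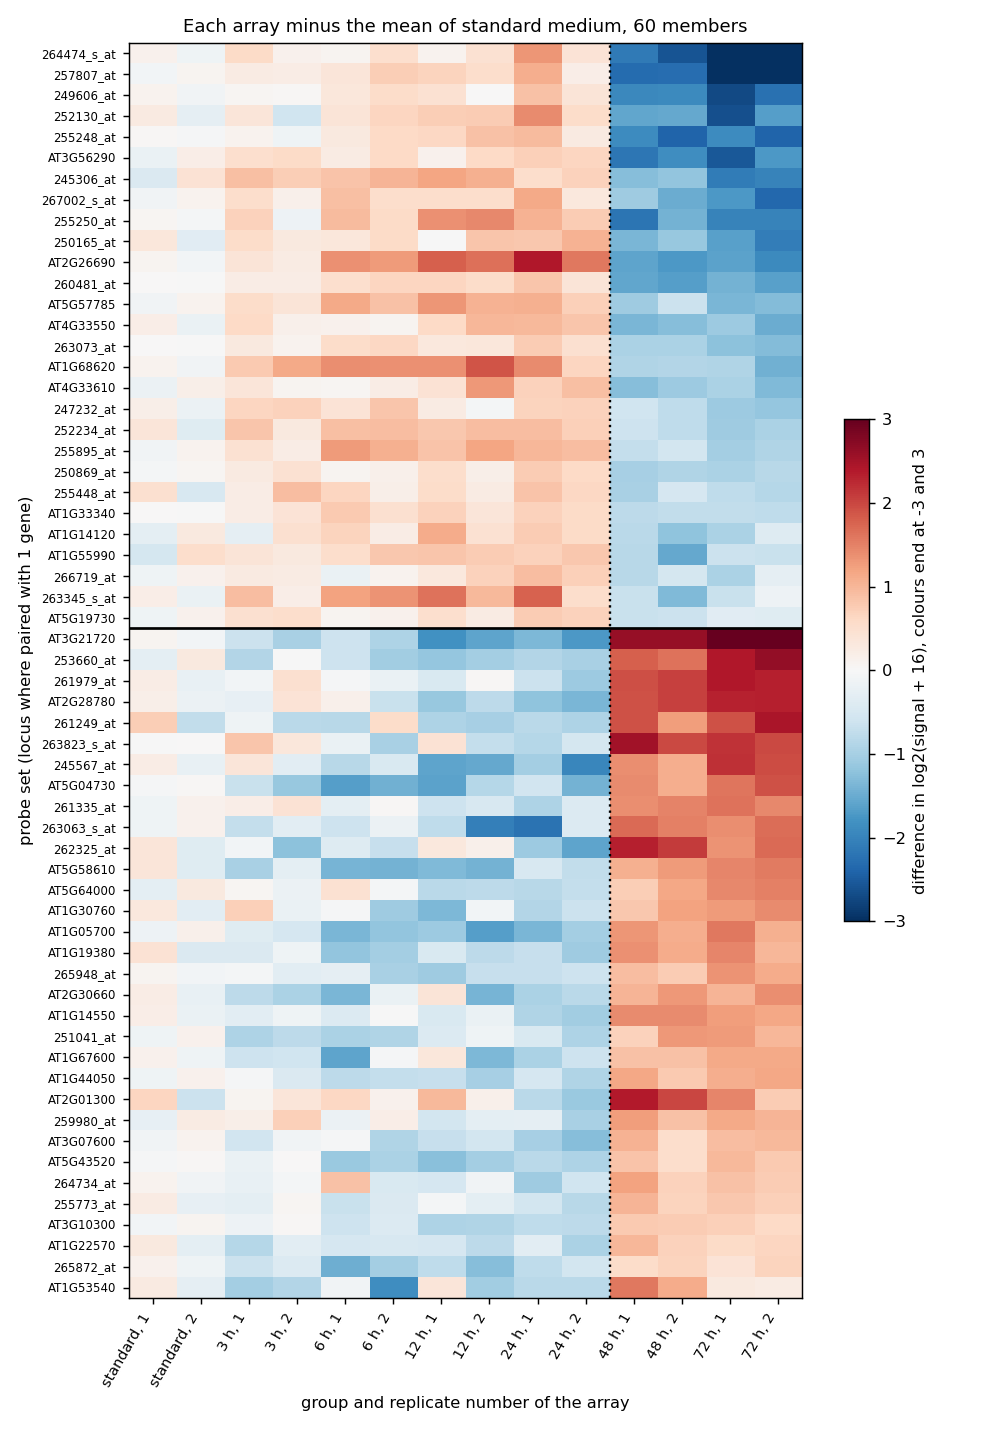
Difference in log2(signal + 16) of each array from the mean of standard medium (colour, ending at −3 and 3) for the 60 members (rows, labelled by locus where paired with a single gene) on the 14 arrays (columns), with a black line between the early-rising and the early-falling members and a dotted line between the array sets. The colour changes side between the 24 h and the 48 h columns in every row, as the definition requires, and the 72 h columns have the sign of the 48 h columns.

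The comparison of 12 h with 3 h used no array of the differences that define the set and lay within the earlier array set. By limma with Benjamini-Hochberg adjustment over 13647 probe sets, 1 early-rising member was called higher and 4 early-falling members were called lower, where 0.388% of all probe sets were called higher and 0.506% lower, or 0.894% in either direction. The 4 were AT5G43520, AT3G10300 and the probe sets 245567_at and 261335_at. The 5 calls became 3 without replicate 2 of 12 h, without replicate 1 of 3 h or without replicate 2 of 3 h. Without the filter of the test, in counts chosen with the values known, the mean at 12 h was higher than at 3 h in 21 of the 28 and lower in 26 of the 32. The median differences were 0.33 and −0.54, against 0.00 over the probe sets past the signal minimum. Both 12 h arrays lay above both 3 h arrays in 16 of the 28, against 17.1% of probe sets past the signal minimum, and below them in 17 of the 32, against 16.1%.

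The comparison of 72 h with 12 h also used no array of the differences that define the set, but it crosses the array sets and shares its 12 h arrays with the comparison above. Its 72 h arrays counted towards the signal minimum, which AT5G58610 met only there (mean 118.7 at 72 h and 90.5 at 48 h). The comparison asked whether the members lay on their 48 h side of the first-day level at a further time. All 28 early-rising members passed the filter and were called lower, and 22 of the 32 early-falling members passed it and were called higher, where 17.6% of tested probe sets were called lower and 17.3% higher, or 34.8% in either direction. The counts over members that passed the filter are no support on their own, since low members pass mainly through the groups where they are high. With the filter of the test left out, both 72 h arrays lay below both 12 h arrays in 28 of the 28, against 31.3% of probe sets past the signal minimum. Both lay above them in 30 of the 32, against 37.8%, with AT5G58610 counted in the 32. The median difference was −2.11 (−3.81 to −0.72) for the 28 and 1.99 (0.55 to 4.78) for the 32. Over all tested probe sets, the central range from the 5th to the 95th percentile was −1.34 to 1.14.

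**Figure D4:**
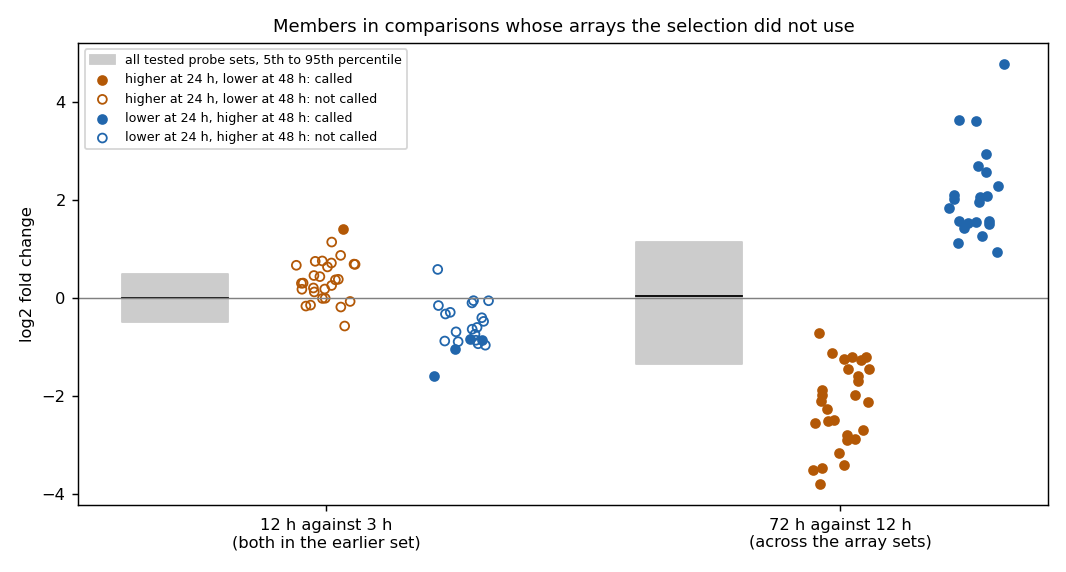
Log2 fold change of each tested member (points, filled where called) at 12 h against 3 h and at 72 h against 12 h, with a grey band from the 5th to the 95th percentile and a line at the median of all tested probe sets. At 12 h against 3 h 5 members are called, and at 72 h against 12 h all 50 tested members are called, 28 lower and 22 higher.

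The comparisons of 3, 6, 12 and 72 h with standard share the standard arrays with the definition. At 3 h, limma called 0 members, against 0.022% of all tested probe sets, although 7 of the 28 and 3 of the 22 tested had an unadjusted p under 0.05, as did 7.28% of all tested, and 1 was called without replicate 2 of standard medium. At 6 h, 6 early-rising members were called higher and 3 early-falling members lower, where 0.366% of all tested were called higher and 0.579% lower, or 0.945% in either direction. At 12 h the counts were 8 higher and 8 lower, beside 1.07% and 1.56% of all tested, or 2.63% in either direction. At 72 h, 22 of the 28 were called lower, beside 17.6% of all tested. Of the 22 early-falling members tested, 20 were called higher, beside 18.3%, and 35.9% of all tested were called in either direction. The standard arrays helped choose the members, and low members passed the filter mainly through the groups where they were high. These counts are therefore a description and no support on their own. Without replicate 1 of 6 h the 9 calls at 6 h became 3, and without replicate 2 of 12 h the 16 calls at 12 h became 10.

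Of the genes called at both 12 and 72 h against standard, those paired with a single gene were AT2G26690, AT1G68620, AT5G57785 and AT4G33550 on the early-rising side and AT3G21720, AT1G05700, AT5G43520 and AT3G10300 on the early-falling side. Their 72 h differences from standard were −1.75, −1.18, −1.33 and −1.30 for the early-rising genes in that order, and 3.09, 1.32, 0.88 and 0.65 for the early-falling genes. Of these, the 72 h call of AT3G10300 ended when replicate 1 of 72 h (adjusted p = 0.0669) or of standard medium (0.0619) was left out, and its 12 h call without replicate 2 of standard medium (0.0540). AT3G56290 was called at 72 h and not at 12 h, where its difference was 0.37. AT1G14120, AT5G19730 and AT1G55990 were not called at 72 h against standard, with −0.66, −0.35 and −0.66.

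Genes of known iron-deficiency response were not among the members and did not reverse. Of 15 such genes listed, 9 had a probe set in the annotation used, on 10 probe sets in all. They were called higher at 72 h against standard in 10 of 10, where 18.3% of all tested probe sets were. At 3, 6 and 12 h they were called so in 1, 3 and 4 of 10, against 0.022%, 0.366% and 1.07%. None was called lower. Their summed signal was 14116 to 16607 at 24 h and 27716 to 28450 at 48 h, against 4315 to 5037 on standard medium. The iron-regulated peptide gene IMA1 averaged 1303 at 24 h and 3018 at 48 h, against 151 on standard medium.

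Of other lists, a single clock gene had a probe set, GIGANTEA (GI), which was on the early-falling side without reaching the threshold at 24 h (−0.38 at 24 h and 0.78 at 48 h). The touch-response genes WRKY53 and ZAT10, both with a probe set out of 8 listed, were called higher at 72 h against standard. So were 18.3% of all tested probe sets. No gene of the jasmonate, phosphate starvation or nitrate lists had a probe set in this annotation, so those pathways were not analysed here.

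Some cell type markers also changed across the same boundary, not all with the course of the members. The root hair genes EXPA7 and EXPA18, 2 of 6 listed, summed to 2293 to 3345 on standard medium. Their sum was lower already at 3 h, at 1387 to 1598. It was 1078 to 1385 at 24 h, 406 to 428 at 48 h and 185 to 246 at 72 h, without a reversal. The green-tissue genes RCA and LHCB4.1, 2 of 7 listed, summed to 614 to 674 on standard medium, 641 to 1119.6 at 24 h, 122 to 126 at 48 h and 81.2 to 102 at 72 h, and their course ran along that of the early-rising members. The endodermal receptor gene SGN3, 1 of 4 listed, was at 534 to 536 on standard medium and 429.9 to 449.6 at 24 h. It was at 601 to 638 at 48 h and 688 to 717 at 72 h. It lay on the side of the early-falling members with small differences from standard (−0.27 at 24 h and 0.21 at 48 h). It was not called at 72 h against standard (0.38) and was called higher at 72 h against 12 h (0.67). The division gene MCM7, 1 of 4 listed, was at 199 to 217 at 48 h and 209 to 277 on standard medium. No measured marker was at 0, no stele or root cap gene of the lists had a probe set, and the part of these cell types in the members' values was not tested.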

How the data were processed

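Whole-root RNA was measured on 14 one-colour arrays. The deposited table gives a linear intensity per probe set, and the submitters' processing notes name MAS5, in a version not given in the sources used here. The trimmed mean was equal on all arrays (250.0), and this scaling was kept. All 14 columns were matched to samples by their labels, with 0 left over. Control probe sets, 64 of 22810, were left out. Values were transformed as log2(signal + 16), which understates changes of low signals. Probe sets in the lowest 40% by the mean of these transformed values were removed, a level that corresponds to a signal of 49.6. The other 13647 were fitted with limma 3.58.1 in R 4.3.3, with 1 mean per group, 7 residual degrees of freedom and limma's trend of prior variance on mean, and tested in 6 comparisons. Benjamini-Hochberg adjustment ran over all probe sets of a comparison, and calls needed an adjusted p under 0.05. The fit was tested on simulated data. Symbols came from the platform's probe table and a reference gene table of assembly TAIR10.1, used only for names and neighbours.

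The members, gene lists and tests were chosen with earlier results of these data known. Genes named were, in each direction, the 12 single genes with the largest smaller difference of 24 and 48 h, the 6 largest among calls at 12 and 72 h against standard, 12 h against 3 h and 72 h against 12 h, AT1G05700, and the probe sets next to the threshold. Alternatives were other pseudocounts (1 and 64), centring on medians, quantile normalization, a filter moved to the 60th percentile or dropped, a constant prior variance, fits of fewer arrays, the replicate number as a block and leaving out each array. Number of arrays limits precision. Replicate numbers were not used to pair the samples in the main fit.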

Additional observations from a re-analysis of the deposited data

Results flagged for a closer look

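For 16 members the effect at 72 h against standard differed from that at 12 h by a test of the difference itself, 72 h against 12 h in limma. Their calls at the 2 times lay in opposite directions, and these share the standard arrays with each other and with the definition of the set. The share of all tested probe sets with such opposite calls was not computed, so the count is a description only. At 72 h against 12 h, 34.8% of tested probe sets were called in either direction. The log2 differences of 72 h from 12 h were −3.48 for AT2G26690, −2.81 for AT1G68620, −2.51 for AT5G57785 and −2.10 for AT4G33550 among the early-rising single genes. For the early-falling single genes they were 4.78 for AT3G21720, 2.70 for AT1G05700, 2.02 for AT5G43520 and 1.57 for AT3G10300. Of the probe sets without a single gene, 255250_at had −3.42, 245306_at −3.17, 255895_at −1.98, 252234_at −1.88, 245567_at 3.64, 253660_at 3.61, 265948_at 2.10 and 265872_at 1.56. The adjusted p-values ran from 9.66e-11 to 4.67e-06. Each of these differences crosses the boundary between the array sets, from which it cannot be told apart.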

How the results depend on the processing

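The number of members, 60, depends on the definition's settings. It was 23 with a pseudocount of 64, 84 with a pseudocount of 1, 39 with a signal minimum of 200 and 8 with a threshold of 1 (1 early-rising and 7 early-falling), and it ran from 60 to 130 when an array was left out, a setting added after the data had been seen that kept 41 to 58 of the 60. Quantile normalization and median centring gave 59 each, sharing 55 and 57 with the 60. With the pseudocount of 64, 13 of the 23 were early-rising and 10 early-falling.

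Members called at 3 h against standard numbered 0 to 1 with an array left out, 1 without replicate 2 of standard medium. The count ran from 3 to 7 at 6 h against 9 with all arrays, the lowest without replicate 1 of 6 h. It ran from 10 to 14 at 12 h, the lowest without replicate 2 of 12 h, and from 36 to 40 at 72 h. It ran from 3 to 4 for 12 h against 3 h, with 3 without replicate 2 of 12 h or either replicate of 3 h, and from 47 to 50 for 72 h against 12 h. A fit of the 4 arrays compared alone called 7 at 12 h against standard and 3 at 12 h against 3 h. The filter at the 60th percentile, under which fewer members were tested, called 26 at 72 h against standard and 27 at 72 h against 12 h. The other alternatives kept the counts within 1.5 times.

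With the replicate number as a block the counts were 0, 10, 17 and 43 at 3, 6, 12 and 72 h against standard, 6 at 12 h against 3 h and 50 at 72 h against 12 h. Deviations of same-numbered arrays correlated between −0.14 and 0.27 over 21 pairs of groups, with 4 over 0.1. The highest was that of 48 h with 72 h. Whether same-numbered arrays shared their handling is not settled by these values. Named genes were tested again 682 times over 53 pairs of gene and comparison, of which 642 kept the call, 40 lost it and 0 changed sign.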
